A study of Oryza sativa with 4 samples.

Results

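The genes described here are the alpha-expansins (EXPA) and expansin-like A genes (EXLA) of rice (Oryza sativa cv Nipponbare), measured in coleoptiles that grew without oxygen or in air. They were chosen by name, as EXPA or EXLA followed by a number, and kept if their level, as log2(intensity + 1) averaged over all 4 arrays, reached 4. The gene table lists these names as synonyms of locus symbols. Of 33 genes so named, 18 had a probe set that reads 1 gene, and 8 of the 18 passed the threshold: EXPA1, EXPA2, EXPA5, EXPA6, EXPA7, EXPA10, EXLA1 and EXLA2. They are 8 of 12291 genes tested.

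Anoxic coleoptiles (2 arrays) came from seeds kept in darkness at 28 °C for 4 days inside an oxygen-free work station, filled with a mixture of 90 parts N2 and 10 parts H2. Aerobic coleoptiles (2 arrays) came from seeds germinated in air for the same time, at the same temperature and in the dark, and are the control of the study. The leaf inside the coleoptile was cut out of the aerobic seedlings, whereas the labels state that anoxic seedlings lack it, so the cutting and the growth condition cannot be told apart. Total RNA was hybridised to the Rice Genome GeneChip of Affymetrix, where each transcript is represented by 1 or more sets of short probes and each sample has an array of its own. Nothing in the labels says that the replicates were grown separately, so the p-values cover the variation among these arrays alone, and this variation may be technical.

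Expansins are secreted proteins that loosen the plant cell wall without cutting its polymers, and they act best at acid pH. Alpha-expansins and beta-expansins are the classes for which loosening has been shown, while expansin-like A proteins share their domain layout and have no established loosening activity. The rice coleoptile, the sheath around the young shoot, is known for elongating without oxygen, when root and leaf growth stop.

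The 8 genes did not move as a group. EXPA7, EXLA1 and EXLA2 rose in anoxic coleoptiles, EXPA1 and EXPA2 fell, and EXPA5, EXPA6 and EXPA10 were not called. A call required an adjusted p below 0.05 in limma and a log2 change of 1 or more in either direction. The 3 rises stand beside a background of 15.9% of all tested genes called higher, and the 2 falls beside 18.0% called lower. Both anoxic arrays lay above both aerobic arrays for 4 of the 8 genes, against 40.7% of all tested genes, and below them for 3 of the 8, against 37.1%. With numbers this small, the shares of the 8 genes say little against these backgrounds. The median log2 change of the 8 genes was 1.10, against 0.03 over all tested genes, and their changes ran from -3.10 to 3.23.

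**Figure D1:**
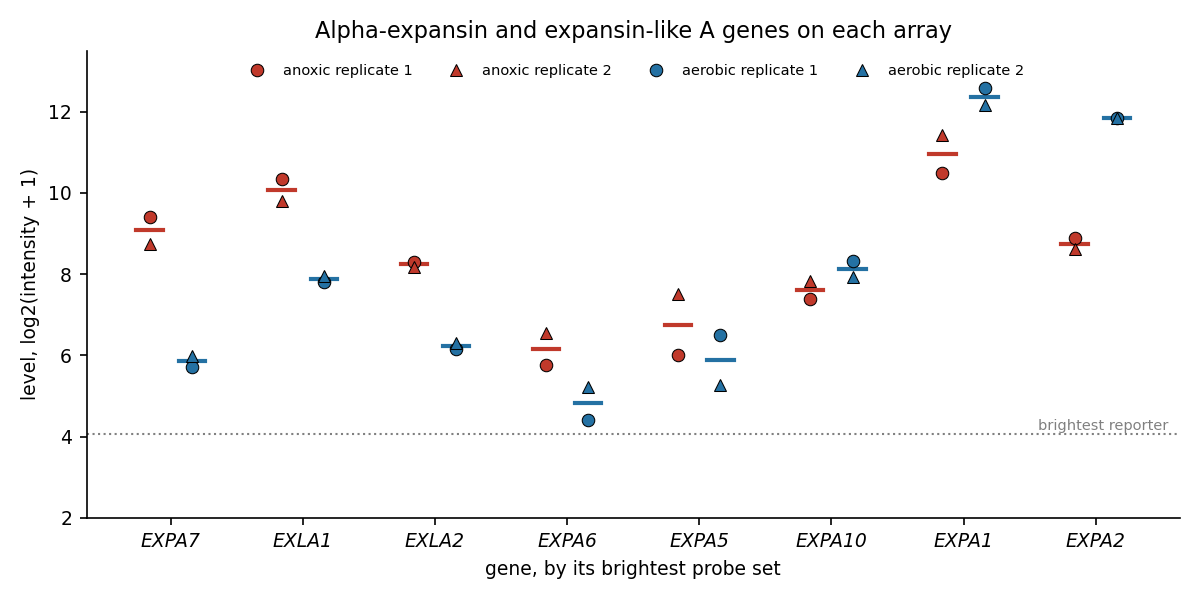
Level of each of the 8 genes on each array, as log2(intensity + 1), with anoxic arrays in red left of aerobic arrays in blue, circles and triangles for replicates 1 and 2, and bars at the group means. EXPA7, EXLA1 and EXLA2 sit higher in anoxic arrays, EXPA1 and EXPA2 sit lower, the arrays of EXPA5 overlap, and every group mean lies above the dotted line at 4.05, the brightest reporter probe set.

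Among the alpha-expansins, EXPA7 (LOC4334606) rose. Its deposited intensity was 683 and 426 in the anoxic arrays, against 51.8 and 62.3 in the aerobic arrays. Both anoxic values lay far above both aerobic values. The mean log2 level was 9.08 ± 0.48 in anoxic and 5.85 ± 0.18 in aerobic coleoptiles (SD, n = 2 each). The log2 change of 3.23 ± 0.29 (SE) corresponds to 9.35-fold on the log2(intensity + 1) scale, with a 95% confidence interval of the log2 change from 2.43 to 4.02 (limma, adjusted p = 0.00359). By size this was rank 237 among the rises of 12291 genes. The call was lost without aerobic replicate 1 (adjusted p = 0.0577) or aerobic replicate 2 (adjusted p = 0.0531), while the log2 change stayed at 3.10 and 3.36, and it was also lost without the filter on mean level (adjusted p = 0.0697). In each fit that leaves out an array, its group holds 1 array, which is assumed to vary like the other group, so these fits show how far a value depends on 1 array and add no support.

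EXPA7 had 2 further probe sets, and neither followed this rise. One read 2.80 in anoxic and 2.80 in aerobic coleoptiles on the log2 scale, and the other read 2.52 in anoxic and 2.51 in aerobic coleoptiles (means, n = 2 each). Both lay below the level threshold and near the median of the reporter controls, probe sets for transgene sequences that these plants should lack, which was 2.75 in anoxic and 2.74 in aerobic arrays. Neither of them measured the gene above background in either group, and the rise of EXPA7 rests on 1 of its 3 probe sets. The probe set that read 2.52 in anoxic coleoptiles is annotated to the same transcript accession as the one that rose. Why the 3 probe sets differ was not tested.

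EXPA2 (LOC4327568) moved the other way. Its intensity was 469 and 389 in the anoxic arrays, against 3664 and 3653 in the aerobic arrays. The aerobic arrays were almost identical and both stood well above the anoxic ones. The mean log2 level was 8.74 ± 0.19 in anoxic and 11.84 ± 0.003 in aerobic coleoptiles (SD, n = 2 each). The log2 change was -3.10 ± 0.19 (SE), or 8.55-fold lower, with an interval from -3.59 to -2.60 (limma, adjusted p = 0.00169). It ranked 548 among the falls of 12291 genes. EXPA2 still read clearly above background in anoxia, and with each array left out in turn its log2 change lay between -3.23 and -2.96 and stayed past the threshold.

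EXPA1 (LOC4335222) also read lower in anoxia, but with a wider spread. Its intensity was 1440 and 2771 in the anoxic arrays, against 6143 and 4551 in the aerobic arrays. The groups did not overlap, though the anoxic arrays stood 0.94 log2 units apart. The mean log2 level was 10.96 ± 0.67 in anoxic and 12.37 ± 0.31 in aerobic coleoptiles (SD, n = 2 each). The log2 change was -1.40 ± 0.39 (SE), or 2.65-fold lower, just inside the threshold (limma, adjusted p = 0.0489). The call was lost without anoxic replicate 1 (log2 change -0.93, adjusted p = 0.116), without aerobic replicate 1 (-1.19, adjusted p = 0.242) and without aerobic replicate 2 (-1.62, adjusted p = 0.163). It was also lost without the filter on mean level (adjusted p = 0.35).

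EXPA6, EXPA5 and EXPA10 did not pass the test. EXPA6 (LOC4332763) had an intensity of 53.0 and 93.5 in the anoxic arrays, against 20.3 and 36.6 in the aerobic arrays, so the groups did not overlap. Its log2 change was 1.34 ± 0.42 (SE), with an interval from 0.20 to 2.47 (limma, adjusted p = 0.0682). In both groups replicate 2 was the brighter array for this gene, by 0.81 log2 units in anoxic and 0.82 in aerobic arrays. With quantile normalization of the arrays EXPA6 was called higher (adjusted p = 0.0407).

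EXPA5 (LOC4330706) was the 1 gene of the 8 whose groups overlapped. Its intensity was 63.1 and 181 in the anoxic arrays, against 89.6 and 37.3 in the aerobic arrays. The replicates stood 1.51 log2 units apart in anoxic and 1.24 in aerobic coleoptiles, beyond the 95th percentile of such gaps over all tested genes, 1.01 in anoxic and 0.97 in aerobic coleoptiles. The log2 change of 0.87 ± 0.68 (SE) had an interval from -0.96 to 2.71 (limma, adjusted p = 0.361), an interval that runs from a fall to a rise. The log2 change was 0.12 without anoxic replicate 2 and 1.63 without anoxic replicate 1.

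EXPA10 (LOC4336776), known in rice roots for induction by aluminium, showed the smallest change of the 8 genes. Its intensity was 166 and 225 in the anoxic arrays, against 317 and 243 in the aerobic arrays. The nearest arrays of the 2 groups were 0.11 log2 units apart, less than the gap within either group. The log2 change was -0.52 ± 0.25 (SE), with an interval from -1.21 to 0.16 (limma, adjusted p = 0.175).

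Both expansin-like A genes that passed the threshold rose. EXLA1 (LOC4331516) had an intensity of 1298 and 894 in the anoxic arrays, against 223 and 246 in the aerobic arrays. Both anoxic values were several times either aerobic value. The mean log2 level was 10.07 ± 0.38 in anoxic and 7.88 ± 0.10 in aerobic coleoptiles (SD, n = 2 each). The log2 change was 2.20 ± 0.25 (SE), or 4.58-fold, with an interval from 1.53 to 2.86 (limma, adjusted p = 0.00561). As for EXPA7, the call was lost without aerobic replicate 1 (adjusted p = 0.0695) or aerobic replicate 2 (adjusted p = 0.0641), and without the filter on mean level (adjusted p = 0.0801).

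EXLA2 (LOC4349265) had an intensity of 315 and 288 in the anoxic arrays, against 70.5 and 78.5 in the aerobic arrays. The replicates agreed within 0.13 log2 units in anoxic and 0.15 in aerobic coleoptiles, the narrowest anoxic gap of the 8 genes. The mean log2 level was 8.24 ± 0.09 in anoxic and 6.24 ± 0.11 in aerobic coleoptiles (SD, n = 2 each). The log2 change was 2.00 ± 0.17 (SE), or 4.00-fold, with an interval from 1.53 to 2.47 (limma, adjusted p = 0.00327). EXLA2 was read by 2 tested probe sets, annotated to the same transcript accession, and the other gave 2.09 ± 0.23 (SE, adjusted p = 0.00548). The brighter of them carries the suffix that Affymetrix gives to probe sets that may also bind other transcripts. With each array left out in turn, the adjusted p of EXLA2 was 0.0312 to 0.0465.

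**Figure D2:**
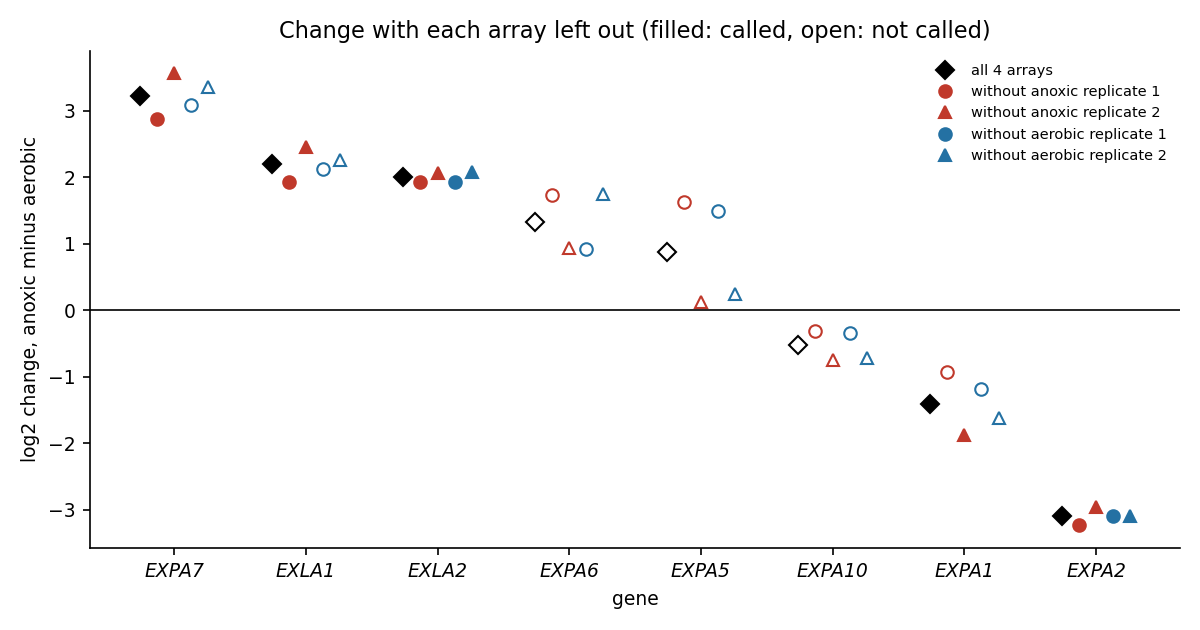
Log2 change of each gene, anoxic minus aerobic, with all 4 arrays (black) and with each array left out, filled where the gene was called and open where it was not. EXLA2 and EXPA2 stayed called in all 5 fits, and EXPA7 and EXLA1 lost the call without either aerobic array. With an array left out, EXPA1 kept its call only without anoxic replicate 2. No gene changed sign.

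Which replicate was the brighter differed from gene to gene. Between the anoxic arrays, replicate 1 was the brighter for EXPA7, EXLA1, EXLA2 and EXPA2, and replicate 2 for EXPA1, EXPA5, EXPA6 and EXPA10. Between the aerobic arrays, replicate 2 was the brighter for EXPA7, EXLA1, EXLA2 and EXPA6. An exact permutation test of 1 gene with 2 arrays against 2 cannot give a 2-sided p under 0.333, so the calls depend on the variance information that limma shares between probe sets.

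The other EXPA and EXLA genes on the array read at background level. For 10 genes the brightest single-gene probe set lay below the threshold: EXPA3, EXPA4, EXPA8, EXPA16, EXPA26, EXPA29, EXPA31, EXPA32, EXLA3 and EXLA4. Their log2 levels on single arrays ran from 2.53 to 3.61, and their group means differed by -0.29 to 0.06, anoxic minus aerobic. Nearest to the threshold from below were EXPA3, with a mean over the 4 arrays of 3.27, and EXPA4, with 3.23, and nearest from above were EXPA6, with 5.49, and EXPA5, with 6.32. EXPA4 is known for induction by submergence in internodes of deepwater rice, and here it read 3.24 in anoxic and 3.21 in aerobic coleoptiles. A probe set at this level gives a bound and not a level, so a change of these genes below the background was not detectable. Another 15 EXPA genes had no probe set for 1 gene and were not analysed here. In the gene table, no member had another expansin gene directly beside it.

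**Figure D3:**
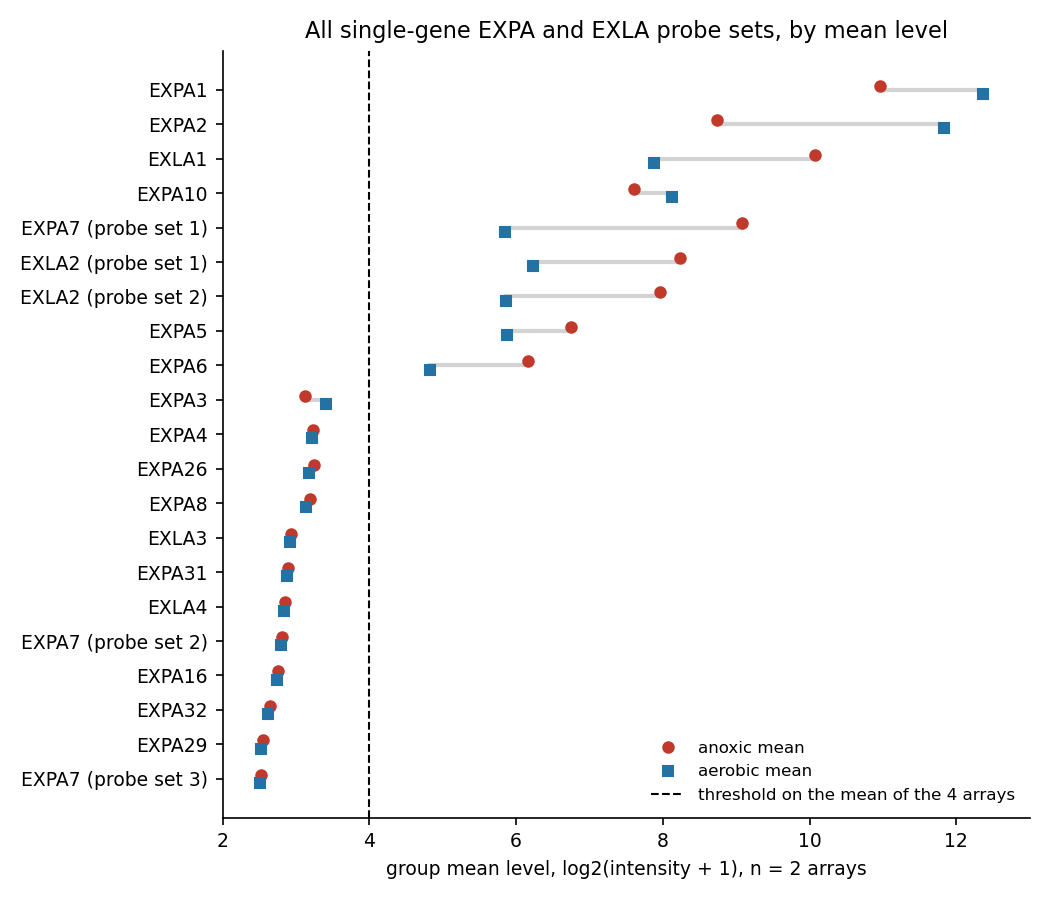
Group mean level, log2(intensity + 1), of all 21 single-gene EXPA and EXLA probe sets, with anoxic means in red and aerobic means in blue and the dashed line at the threshold of 4. The 9 probe sets above the line belong to the 8 genes described, and the 12 below it, among them 2 of EXPA7, had group means between 2.51 and 3.41. Levels of different probe sets are not comparable with each other.

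The beta-expansins (EXPB), the other large class, moved in 1 direction where they were called. Of 7 tested genes, 5 fell and 0 rose by limma (0 also at an unadjusted p under 0.05), with a median log2 change of -1.68, against 18.0% of all tested genes called lower and 15.9% called higher. EXPB6 fell by 3.32 ± 0.21 on the log2 scale (SE, adjusted p = 0.00187) and EXPB3 by 2.83 ± 0.56 (adjusted p = 0.0209). EXPB2 was at background in anoxia and was at least 13.7-fold lower than in air, measured against the brightest reporter (adjusted p = 0.00456). With aerobic replicate 1 as the only aerobic array the bound was 8.61-fold, and with replicate 2 it was 21.9-fold. EXPB2 passed the filter on mean level through its aerobic arrays alone, so it could enter the test only as a gene that differs, and without it 4 of 6 beta-expansins fell. EXPA1 and EXPA2 thus moved in the direction of the called beta-expansins, and EXPA7, EXLA1 and EXLA2 in the opposite one. Whether the 2 groups of genes differ was not tested. EXPB6, EXPB2, EXPB3 and EXPB4 carry consecutive locus numbers, LOC4349347 to LOC4349350. EXPB4 fell by 1.10 ± 0.18 (SE, limma, adjusted p = 0.014). Among the called beta-expansins only EXPB11 lies outside this run, and whether the falls within it are independent was not tested. Of the 7, 2 were called lower without aerobic replicate 1, 2 without aerobic replicate 2, 4 without anoxic replicate 1 and 5 without anoxic replicate 2. XTH8, a xyloglucan endotransglucosylase/hydrolase that cuts and rejoins wall xyloglucan, was the 1 tested gene of its list and fell by 1.93 ± 0.17 (SE, adjusted p = 0.00348). The list of plasma membrane proton pumps, which acidify the wall, matched no tested gene and was not analysed here.

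**Figure D4:**
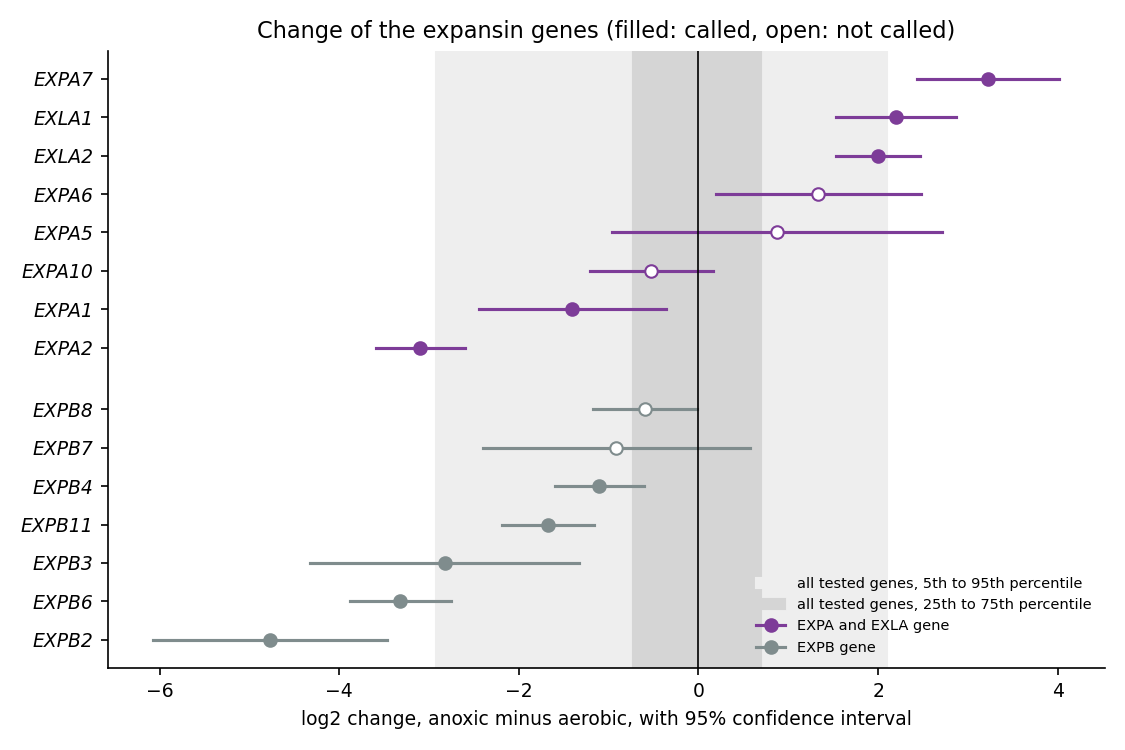
Log2 change, anoxic minus aerobic, of the 8 EXPA and EXLA genes (purple) and the 7 EXPB genes (grey) with 95% confidence intervals, filled where called. The light and dark bands hold the central 90% and 50% of all 12291 tested genes, and EXPA7, EXLA1, EXPA2, EXPB6 and EXPB2 lie outside the light band, which ends at -2.92 and 2.09. EXPB2 is at background in anoxia, so its fitted change is not a measured size.

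Genes with the most similar pattern were sought among 1833 tested genes with a name beyond a locus number, by the Euclidean distance over the 4 arrays after each gene's own mean was subtracted. Nearest to EXPA7 were FH15, a formin, at a distance of 0.35, BC1L6, a COBRA-like gene, at 0.39, and HMA2, a heavy metal transporter, at 0.42. Nearest to EXLA1 were the starch synthase gene SSII-1 (0.14), the RNA-dependent RNA polymerase gene RDR2 (0.14) and TFIIB (0.17). Nearest to EXLA2 were BZIP02 (0.12), the glutaredoxin gene GRXS1 (0.16) and GLU1, an endoglucanase gene (0.17). Nearest to EXPA2 were the protein kinase gene SAPK9 (0.18), the ethylene receptor gene ERS2 (0.23) and LOGL5 (0.25).

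Nearest to EXPA1 were the peroxidase gene PRX74 (0.18), CYCP2-1 (0.20) and CSLC7 (0.30). Nearest to EXPA10 were STAR2 (0.06), the ascorbate peroxidase gene APX5 (0.09) and AP25 (0.12). EXPA6 had CTU2 (0.29), RPA32A (0.32) and ENR (0.37) as its nearest genes, and EXPA5 had CYCD2-2 (0.58), GRF1 (0.68) and TIM13 (0.78). Distances grow with the spread between replicates, so they describe likeness on these 4 arrays alone.

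Some markers of other tissues differed between the groups and others did not. Of 8 leaf genes on the array, 3 read above the brightest reporter in each group, and their summed intensity over the 8 was 272 to 302 in anoxic and 371 to 385 in aerobic arrays. Of 3 tested leaf genes 1 was called, PSAG, lower in anoxia with a log2 level of 5.95 in anoxic and 7.35 in aerobic coleoptiles. The lower sum in anoxia comes from PSAG, as the other leaf genes differed little or read higher in anoxia. PSAG was listed as a photosystem I subunit by its name alone, and whether this locus encodes that subunit was not checked. RBCS, named for the small subunit of Rubisco, read 7.37 in anoxic and 7.32 in aerobic coleoptiles. PSAH, also named for a photosystem I subunit, read 4.66 in anoxic and 4.18 in aerobic coleoptiles. The chlorophyll a/b-binding genes were at background in both. Of 10 seed genes, most of them named for storage proteins, 2 read above the brightest reporter in each group. The sum was 207 to 214 in anoxic and 438 to 470 in aerobic arrays. Of 2 tested seed genes 1 was called lower, GLB1, at 6.78 in anoxic and 8.46 in aerobic coleoptiles. GLB1 alone accounts for nearly all of the difference between the seed sums. GLB1 likewise entered its list by name alone, and whether this locus is the seed globulin gene was not checked. The glutelin gene GLUA2 read 5.53 in anoxic and 5.59 in aerobic coleoptiles. These calls stand beside the same 18.0% of all tested genes called lower. The root list had no single-gene probe set, and no marker list for the coleoptile itself was set. The part of these differences in the expansin results was not tested. In bulk tissue, fewer cells of a type and less RNA per cell cannot be told apart.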

How the data were processed

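The authors deposited linear intensity values, 1 for every probe set on every array, which were background-corrected and normalized with GCRMA per the submitters' processing notes. GCRMA takes the base composition of probes into account, and its version was not given in the sources. The deposited values ran from 2.25 to 18694, with array medians from 7.36 to 7.55, and were not rescaled. The number of arrays limits the precision. From them log2(intensity + 1) was computed, which understates changes of dim probe sets.

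Of 57381 probe sets, 187 controls were left out. The other 57194 were named through the platform annotation, which can be old (22436 with 1 gene, 95 with several and left unnamed, 34663 with none), and through the RefSeq gene table of assembly ASM3414082v1, used for names and neighbours only. No sequence is printed. A mean level of 4 or more was required, and the 18826 probe sets that met it entered a 2-sided limma fit (lmFit, eBayes; limma 3.58.1, R 4.3.3; 2 residual and 2.34 prior degrees of freedom), with Benjamini-Hochberg adjustment over them. Intervals are 95% limma intervals, not adjusted. A gene stands by its brightest tested probe set. Where a called gene's dimmer group lay at or below 4.05, the highest group mean of the 64 reporters, an at least N-fold bound is given. The steps were tested on simulated data.

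The members, lists and tests were chosen with earlier results of these data known. All 8 EXPA and EXLA genes are named, as are, per further list, up to 3 called genes of each direction, and the 3 nearest genes per member. EXPB4 and EXPB11 are named beyond this rule, for their locus numbers. From the marker and pump lists, RCAR5, NSHB1 to NSHB4, MADS3 and PSAG (for pumps) were dropped as matched by name only. Replicate numbers came from the sample titles, and the labels do not say that they mark a shared batch. Alternatives were quantile normalization, pseudocounts of 0 and 16, other level filters, a floor of 5, a trended robust prior, a replicate block and leaving out each array.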

Additional observations from a re-analysis of the deposited data

How the results depend on the processing

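No EXPA or EXLA gene changed sign under any alternative run, and EXPA2 and EXLA2 were called under all of them. Without the filter on mean level, which adds dim probe sets to the fit, 738 probe sets were called higher and 971 lower, against 3015 and 3021, and EXPA7 (log2 change 3.23, adjusted p = 0.0697), EXLA1 (2.20, adjusted p = 0.0801) and EXPA1 lost their calls, leaving 1 EXPA or EXLA gene higher, 1 lower and 1 beta-expansin lower. With a mean of at least 6, which tests fewer probe sets, 1934 were called higher and 1895 lower. With each array left out, EXPA7 changed by 2.89 to 3.57 and EXLA1 by 1.93 to 2.46, while 1 to 3 EXPA and EXLA genes were called higher and 1 to 2 lower, 2 to 5 beta-expansins lower, and 692 to 2092 probe sets higher and 1186 to 2262 lower. The lowest number of probe sets called higher came without aerobic replicate 1.

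Same-numbered arrays of the 2 groups did not deviate together (r = -0.14 over tested probe sets), so the numbers were not taken as pairs. With a replicate block 4 EXPA and EXLA genes were called higher, EXPA6 among them (adjusted p = 0.0256), and 1 lower, without EXPA1 (adjusted p = 0.0802), with 2761 probe sets higher and 2795 lower. With the pairs crossed, an alternative chosen after seeing the data, 3 were called higher and 2 lower. The alternatives for EXPA1, EXPA2, EXPA5, EXPA6 and EXPA10 were also added after seeing the data. The other probe sets of EXPA7 were not tested, being below the filter. Causes were not tested.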
